A study of Mus musculus with 2 samples.

Results

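The nuclear genes for the subunits of respiratory chain complexes I to IV were examined in LSK cells of nondiabetic and diabetic mice. LSK stands for lineage-negative, Sca-1-positive and c-kit-positive, the gate in bone marrow that contains hematopoietic stem cells and early progenitors. The members were all genes with a probe on the arrays whose symbol names a complex I subunit (Ndufa, Ndufab, Ndufb, Ndufc, Ndufs or Ndufv followed by a number), a complex II subunit (Sdha to Sdhd), a complex III subunit (Cyc1 or a symbol that begins with Uqcr) or a complex IV subunit (Cox4 to Cox8 with a letter). This gave 68 of the 21360 named genes, measured by 87 of the 28319 named probes, with 37 genes in complex I, 4 in complex II, 9 in complex III and 18 in complex IV. A further 6 symbols of the same form, Cox5b-ps, Cox6c2, Cox7c-ps1, Ndufb1, Uqcrh-ps1 and Uqcrh-ps2, had no named probe and were not analysed here.

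The study compared STZ-induced diabetic mice with nondiabetic mice. STZ (streptozotocin) is a toxin of the insulin-producing beta cells and leaves mice short of insulin. Each condition was measured on 1 Agilent array that, by the labels, stands for 3 C57BL/6J mice and 8.3 ng of total RNA, amplified before labelling with Cy3. The mice of both arrays are female by the labels, which give no age, whereas the paper's text describes males.

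The respiratory chain sits in the inner mitochondrial membrane. Complexes I and II take electrons from NADH and succinate, complex III passes them to cytochrome c, complex IV hands them to oxygen, and complexes I, III and IV pump the protons that drive ATP synthase. Most of the subunits are encoded in the nucleus and only a core set in the mitochondrial genome, so that assembly needs both, and hematopoietic stem cells are known for relying on glycolysis while quiescent and on oxidative phosphorylation when they differentiate.

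The promoters of such genes are known for sites of NRF1, of the ETS factor GABP (also called NRF-2) and of YY1. In RefSeq windows on the build GRCm38.p6, from 250 bases before to 50 after a start site, 54 of the 68 members had at least 1 window (56 windows in all) and 14 had none. The letters searched on both strands were GCGCA followed by any 1 base and GCGC for NRF1, CCGGAAG for ETS and AAGATGGC for YY1, each searched on its own, so that matches of different motifs could overlap. A gene with several windows was counted once. The NRF1 letters were in 11 members (20.4%, against 5.19% of all 27025 genes with a window), the ETS letters in 11 (20.4%, against 9.93%), the YY1 letters in 7 (13.0%, against 3.19%) and at least 1 of the motifs in 26 (48.1%, against 16.4%). Members had 1.04 windows per gene and all genes 1.22. The 60-base stretches that follow end at or before the start site, read 5′ to 3′ on the strand of the gene, and carry the motif in capitals. The first 3 hold the NRF1 letters in genes with a positive, a near-zero and a negative log2 ratio, and the last 2 hold the ETS letters in the member with the highest ratio and in one near 0.
Ndufa5 (chr6:24527691-24527750, minus strand): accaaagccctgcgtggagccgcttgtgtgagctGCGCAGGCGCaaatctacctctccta
Cox6a1 (chr5:115349086-115349145, minus strand): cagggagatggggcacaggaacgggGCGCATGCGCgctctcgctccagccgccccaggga
Ndufa8 (chr2:36049339-36049398, minus strand): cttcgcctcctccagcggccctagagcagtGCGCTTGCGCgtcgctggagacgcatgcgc
Cox6b1 (chr7:30626115-30626174, minus strand): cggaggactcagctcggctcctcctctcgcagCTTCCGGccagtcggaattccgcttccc
Uqcrh (chr4:116075071-116075130, minus strand): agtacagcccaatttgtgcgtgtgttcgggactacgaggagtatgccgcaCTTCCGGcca

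Members with the letters of each motif lay on both sides of 0, as did all 65 members with a value (36 above and 29 below). Of the 11 members with the NRF1 letters 6 were above 0 and 5 below, and they ranged in log2 ratio from -0.86 (Ndufa8) to 0.59 (Ndufa5), with a median of 0.04 beside 0.04 for the members without them. Of the 11 with the ETS letters 9 were above 0 and 2 below, from -0.03 (Cox6a1) to 1.39 (Cox6b1), with a median of 0.15 beside -0.03 without. Those above 0 included Ndufs3 at 0.01, Uqcrh at 0.07, and Sdhb at 0.57, whose second probe gave -0.84. For the YY1 letters 5 members were above 0 and 2 below, the range was -1.35 (Ndufs4) to 0.94 (Ndufc1) and the medians were 0.14 with and 0.02 without. A match describes letters in a window and says nothing of binding.

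Intensities are given as the scanner software's processed signal before scaling, and each log2 ratio is diabetic over nondiabetic after each array was scaled by its 75th percentile (168 on the nondiabetic array, 182 on the diabetic one). Equal intensities therefore give a ratio slightly below 0. On both arrays 62.7% to 63.9% of the spots were well above background by the flag of the software, and the number of saturated spots was 0. The probe with the highest mean signal stands for a gene with several probes. With 1 array per condition the differences have no replicate check, so no test was made, and a gene is called higher or lower only where it passed 2-fold. In sorted bulk cells, fewer cells of a kind and less RNA per cell cannot be told apart.

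The cells carried the markers of their gate. Kit, the receptor used in the sort, had intensities of 4635 and 4735 on the nondiabetic and diabetic arrays, and Ly6a, which encodes Sca-1, had 475 and 701. Of 10 LSK markers, 9 were well above background on the nondiabetic and 10 on the diabetic array. Markers of other cells were also read, and several of these differed past 2-fold between the arrays as well. Of 12 granulocyte-monocyte genes 11 and 10 were well above background, with 8 of 11 values below 0 and a median log2 ratio of -0.34 (S100a8 -1.48); their summed intensity, 44553 and 43390, was mostly that of Itgam (34686 and 35189). Of 9 erythroid genes 8 were well above background on each array, with 4 values above 0, 4 below and a median of -0.03. Their summed intensity, 3836 and 7634, was mostly that of Hba-a1 (1984 and 4967, 1.21) and Hbb-bt (923 and 1681, 0.75). The megakaryocyte list (5 of 6 genes on each array, sum 649 and 934) had 4 values above 0 and 1 below. Gp9, at 1.52, read 14.4 on the nondiabetic array, near the lowest intensity well above background there (10.2). Vwf (231 and 231) was at -0.12. The B cell list (5 and 6 of 7, sum 752 and 1147) had 5 values above 0 and 1 below. Its sum was mostly that of Vpreb1 (535 and 811, 0.48). Cd79a was at 1.51, Igll1 at least 3.39-fold higher and Cd79b at -0.39. Of the 6 T and NK genes 4 were well above background on each array (sum 4547 and 3825), and Cd3g was at least 2.74-fold lower. Of 7 stromal and endothelial genes it was 4 (sum 1122 and 1857), with Pecam1 at 2.41, Col1a2 at -1.07 and Kdr at -0.11, and with Col1a1 and Cdh5 at background. The part of these cells in the values below was not tested.

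Nearly all subunit genes were measured, and most differed little between the arrays. Of the 68 genes, 65 were well above background on both arrays and 3 on neither array. Only 3 of the 65 were at least 2-fold higher in diabetic mice (Cox6b1 and Ndufa10 among them), 1 was 2-fold lower or more (Ndufs4), and 61 lay within 2-fold. Over all 15192 named genes with a value, 11.0% passed 2-fold upward and 10.1% downward. That background includes many dim genes with a wide scatter, whereas 53 of the 65 members lay in the brightest of 3 equal groups of genes by signal. In that brightest group of 4489 genes, 4.21% passed 2-fold upward and 2.65% downward. The 53 members there had 2 genes higher and 1 lower, 5.66% past 2-fold beside 6.86% for the group, which is near the background.

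The center of the distribution was close to 0. Above 0 lay 36 members and below it 29, with a median log2 ratio of 0.04 beside 0.02 over all named genes. The SD across the 65 genes was 0.52, beside 0.94 over all genes and 0.55 in the brightest group. The middle 50% of the members spanned -0.24 to 0.28. In the brightest group it spanned -0.21 to 0.36. The subunit genes therefore scattered about as much as other genes of high signal on this pair of arrays.

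**Figure D1:**
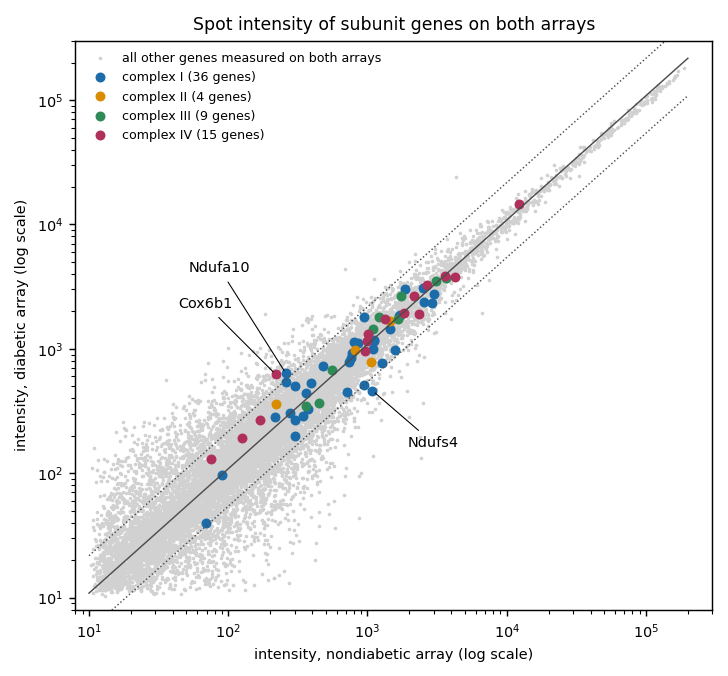
Processed spot intensity on the nondiabetic array (x axis) and the diabetic array (y axis), both on log scales, for genes measured on both arrays, with the subunit genes coloured by complex (1 complex I gene is not drawn), a solid line at a scaled ratio of 1 and dotted lines at 2-fold. Cox6b1 and Ndufa10 lie above the upper 2-fold line and Ndufs4 below the lower one, and the other 61 members drawn lie between the lines.

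The gene with the highest ratio was Cox6b1, a nuclear subunit of complex IV on the side that faces cytochrome c. Its probe (A_51_P448032) read 219 in cells of nondiabetic mice and 623 in those of diabetic mice, which gave a log2 ratio of 1.39 (2.62-fold). Ndufa10 encodes an accessory subunit on the membrane arm of complex I and read 260 and 633 (A_51_P272123), a log2 ratio of 1.17 (2.25-fold). Both stayed past 2-fold under each of the 10 processing alternatives. The only gene past 2-fold in the other direction was Ndufs4, an accessory subunit that helps hold the NADH-oxidizing module on complex I and whose loss causes Leigh-like disease in mice. Its probe (A_51_P388696) read 1086 in cells of nondiabetic mice and 461 in those of diabetic mice, which gave a log2 ratio of -1.35 (2.56-fold lower). Each of these 3 genes was measured by 1 probe printed once, so none had a second probe or a spot-to-spot spread of its own.

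**Figure D2:**
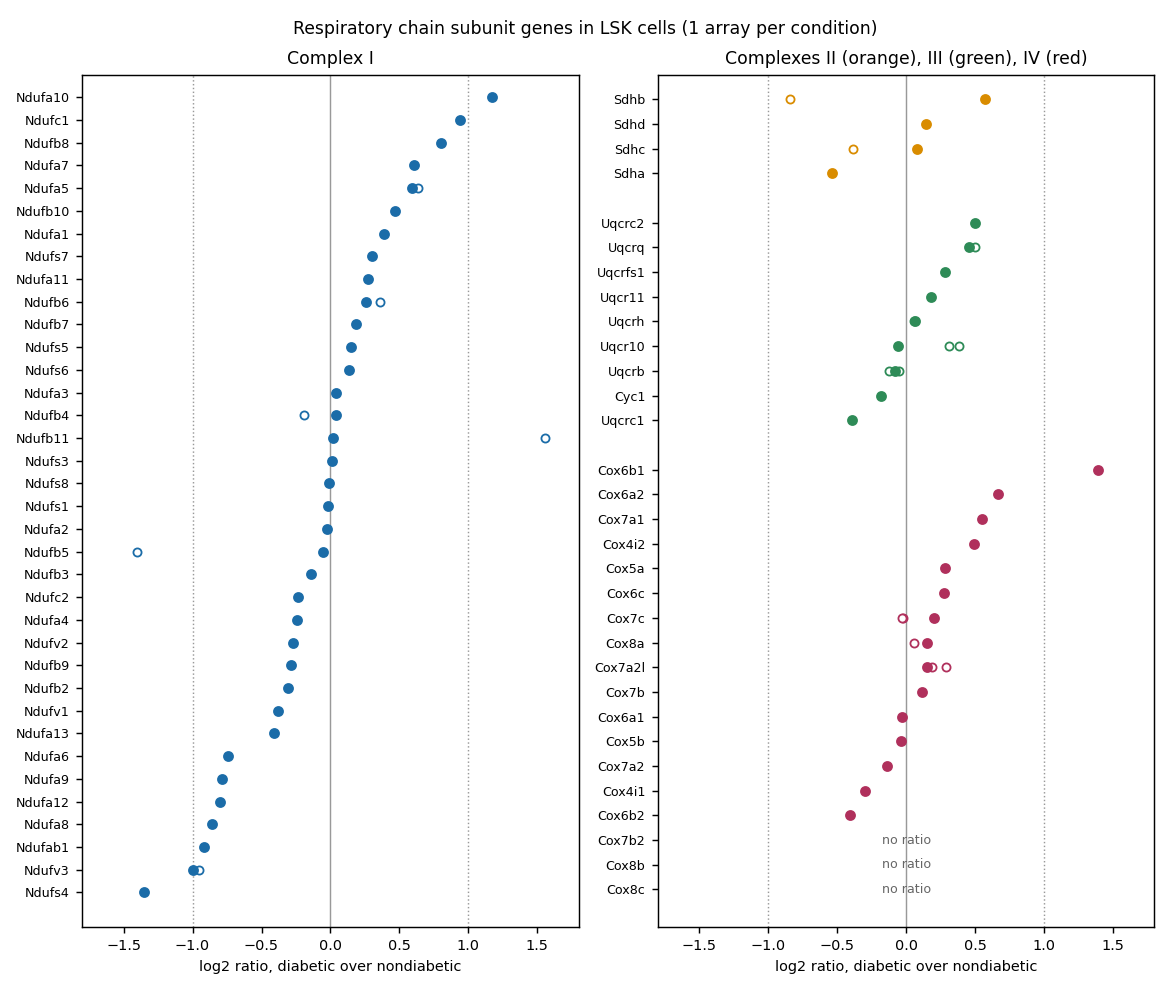
Log2 ratio of diabetic over nondiabetic (x axis) for each subunit gene, sorted within complex I (left) and within complexes II to IV (right), where filled points are the probe that stands for the gene, open points are its other probes and dotted lines mark 2-fold. Complex I, drawn without 1 gene, runs from Ndufs4 at -1.35 to Ndufa10 at 1.17, and complex III stays between -0.39 and 0.50.

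Complex I had the widest spread. Its 37 genes had a median of -0.01 and an SD of 0.59, with 18 genes above 0 and 19 below, and 13 of them (35.1%) differed by more than 0.5 on the log2 scale, beside 45.4% of all named genes and 28.6% of the brightest group. The catalytic subunits described here, which are not all of them, lay within 2-fold. Ndufs1, which carries iron-sulfur clusters, read 736 and 788 (-0.02). Ndufs3, a subunit of the quinone module, read 1690 and 1843 (0.01). The iron-sulfur subunits next to the quinone site, Ndufs7 and Ndufs8, stayed within 2-fold as well. For Ndufs7 the intensities were 396 and 530 (0.30), and for Ndufs8 they were 90.2 and 97.1 (-0.01). The NADH-binding flavoprotein gene Ndufv1 read 345 and 287 (-0.38), and its iron-sulfur partner Ndufv2 read 1099 and 990 (-0.27). All of these values lay between -0.38 and 0.30.

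The 30 accessory subunits of complex I had a median of 0.00 to 2 decimals, and 12 of them (40.0%) differed by more than 0.5 in either direction. Those with the most negative values after Ndufs4 lay within 2-fold. Ndufv3, a small subunit of the NADH-oxidizing module, read 938 and 511, a log2 ratio of -0.99, and its second probe read 274 and 153 (-0.96). This value lay just inside the 2-fold limit and passed it under quantile normalization, loess and the authors' table, which made 2 members lower in place of 1. Ndufa12, which takes the place of the assembly factor Ndufaf2 late in assembly, read 1579 and 981 (-0.80). Ndufa9, a subunit near the quinone site, read 717 and 450 (-0.79). Ndufa6, which anchors the acyl carrier protein, read 304 and 197 (-0.74), and Ndufab1, the acyl carrier protein itself, read 68.8 and 39.6 (-0.91) and was the dimmest member measured. Ndufa8, on the intermembrane-space side of the membrane arm, read 1281 and 767 (-0.86).

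Other accessory subunits were on the opposite side of 0. Ndufc1, a short membrane-arm subunit, read 261 and 544 (0.94), the value nearest to 2-fold from inside among the genes above 0. Ndufb8, in the far part of the membrane arm, read 947 and 1795 (0.80). Ndufa7 (304 and 502, 0.61) and Ndufa5 (1855 and 3026, 0.59) belong to the peripheral arm, as Ndufv3 does, so both signs occurred within that arm. The second probe of Ndufa5 read 411 and 692, a log2 ratio of 0.63.

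By symbol the families of complex I differed in spread. The 13 Ndufa genes had an SD of 0.65 with 7 genes (53.8%) beyond 0.5, from -0.86 (Ndufa8) to 1.17 (Ndufa10). The 10 Ndufb genes, which belong to the membrane arm, had an SD of 0.34, with Ndufb8 the only gene beyond 0.5 and the other 9 between -0.31 (Ndufb2) and 0.47 (Ndufb10). All 3 Ndufv genes were below 0, from -0.99 to -0.27. Ndufa4, named as a complex I subunit by its symbol and now assigned to complex IV, was the brightest complex I member on the nondiabetic array and read 3012 and 2768 (-0.24). Moving it changed the median of complex I from -0.01 to 0.00 and left that of complex IV at 0.15 to 2 decimals.

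Complex II, which is also an enzyme of the TCA cycle, has no subunit from the mitochondrial genome. Its 4 genes had a median of 0.11. Sdha, the flavoprotein that oxidizes succinate, read 1055 and 788 (-0.54), the only complex II gene below 0. Sdhb, the iron-sulfur subunit, read 222 and 357 (0.57) on the probe with more signal, but 156 and 94.7 (-0.84) on its second probe. The direction for Sdhb thus depended on the probe, and with the mean over its probes the value was -0.14. The membrane anchors were closer to 0. Sdhc read 1459 and 1671 (0.08), with 500 and 416 (-0.38) on its second probe, and Sdhd read 820 and 982 (0.14).

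Complex III had the smallest SD across genes of the 4 complexes, at 0.30. None of its 9 genes passed a log2 ratio of 0.5, and the median was 0.07. Uqcrc2, at 0.497, lay just inside that limit and passed it with normexp (0.51) and with median scaling (0.52). The catalytic subunits Cyc1 (cytochrome c1; 361 and 346, -0.18) and Uqcrfs1 (the Rieske iron-sulfur protein; 1091 and 1438, 0.28) lay on either side of 0. So did the core proteins, with Uqcrc1 lowest of the complex at 448 and 369 (-0.39) and Uqcrc2 highest at 0.50. Of the 5 small subunits, Uqcrb, a quinone-site neighbour and the brightest gene of the complex, read 3640 and 3733 (-0.08). Uqcrq, which binds cytochrome b, read 1212 and 1804 (0.46), with 0.50 on its second probe.

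Uqcrc2 was the only member whose probe (A_51_P128648) was printed more than once. On 9 spots its intensity was 1594 at the lowest, 1738 at the median and 1810 at the highest in nondiabetic mice, and 2555, 2665 and 2729 in diabetic mice. The spots of the arrays did not overlap, and the log2 ratio was 0.50 ± 0.06 (SD, 9 spots), from 0.43 to 0.65. These spots shared 1 RNA sample on each array, so the SD holds the error between spots and none of that between mice, sorts or amplifications. Over 41 probes with a signal in the middle range of the members and at least 5 spots, the same SD had a median of 0.06, and over the 167 within the whole signal range of the members it was 0.10.

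Complex IV had a median of 0.15, with 10 genes above 0 and 5 below among the 15 measured. The 11 isoforms common to most tissues ranged from -0.30 for Cox4i1 to 1.39 for Cox6b1, and apart from Cox6b1 all lay within 0.30 of 0. Cox4i1, the isoform of the regulatory subunit in most tissues, read 4257 and 3762. Cox5a, which sits beside it on the matrix side, had a log2 ratio of 0.28, and so did Cox6c. Cox7a2l, known from supercomplexes of complexes III and IV, had the highest probe signal of the members. It read 12203 and 14669 (0.15), with 0.29 and 0.19 on its other probes.

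The isoforms of particular tissues were read as well. Cox4i2, known from lung and from low oxygen, read 126 and 192 (0.49). The heart and muscle isoforms Cox6a2 (75.5 and 129.8, 0.66) and Cox7a1 (169 and 268, 0.55) were above 0 and within 2-fold. Cox8b, also a muscle isoform, and Cox7b2 and Cox8c, known from testis, did not stand well above background on any array and had intensities between 2.43 and 6.66. Cox6b2, the testis counterpart of Cox6b1, was well above background and read 2342 and 1916 (-0.41), the lowest value of complex IV, where Cox6b1 had the highest.

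Several probes of 1 gene give the other internal check. Of 15 members with at least 2 measured probes, 3 (20.0%) had probes more than 2-fold apart in ratio, 5 (33.3%) had probes on both sides of 0, and the median gap was 0.14 on the log2 scale. Among 3230 other genes, 35.5% had such a gap, 48.9% had both signs, and the median gap was 0.66. With both probes in the signal range of the brightest group, 0 of 10 members and 13.7% of 665 other genes had a gap over 2-fold. The members with the large gaps were Ndufb11, Sdhb and Ndufb5. The brighter probe of Ndufb11, a membrane-arm subunit, read 1703 and 1867 (0.02) and the other one 94.3 and 300.4 (1.55). For Ndufb5, of the same arm, the brighter probe read 1113 and 1160 (-0.06) and the other one 156 and 64.0 (-1.40).

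**Figure D3:**
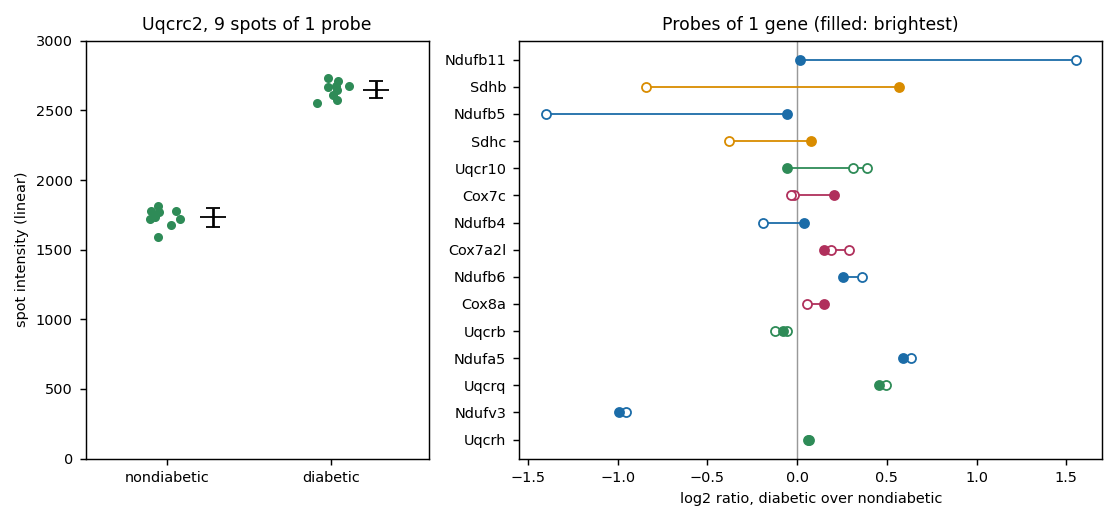
Left, the processed intensity (linear axis from 0) of the 9 spots of the Uqcrc2 probe on each array, with the mean ± SD over spots beside them. Right, the log2 ratio of diabetic over nondiabetic for every measured probe of the 15 members with several, joined by gene, with the brightest probe filled, where Ndufb11, Sdhb and Ndufb5 show gaps of 1.54, 1.41 and 1.35.

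The genes around the chain gave a background for the subunits. ATP synthase, which uses the proton gradient, had 0 of 18 genes past 2-fold, 6 above and 12 below 0, and a median of -0.14. Of all named genes 11.0% were higher and 10.1% lower, and of the brightest group 4.21% and 2.65%. The ATP synthase genes had median intensities of 1597 and 1389, beside 815 and 937 in that group. The range of ATP synthase ran from -0.83 for Atp5j2 (2170 and 1326, with -0.43 on its second probe) to 0.62 for Atp5g3, a gene of the membrane ring (1637 and 2735). The carrier between complexes III and IV, cytochrome c, had intensities of 650 and 809 (0.20) for Cycs, with -0.68 on another probe (183 and 123), and 17.1 and 15.7 (-0.24) for the testis form Cyct. Subunits from the mitochondrial genome were not analysed here, because 0 probes were named for them.

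Assembly factors, which build the complexes and are not part of them, had a larger SD across genes than the subunits, and fewer of them were in the brightest group. Of 41 genes with a value, 6 passed 2-fold upward and 7 downward (31.7% together, beside 6.15% of the subunits and 21.1% of all named genes), with a median of 0.02 and an SD of 1.11. By signal, 1 of 11 in the brightest group passed 2-fold (9.09%, beside 6.86% of all genes there and 5.66% of the subunits), and 6 of 16 in the middle group did (37.5%, beside 22.9% of all genes and 9.09% of the 11 subunits there). Of 8 in the dimmest group 1 was higher and 2 were lower (37.5%, beside 23.9% of all genes there). The 6 factors with a bound belong to no group by signal. The lowest was Coa4, a complex IV factor, which read 295 and 34.7 (-3.20), with 221 and 39.5 (-2.60) on its second probe. Sco2, which delivers copper to complex IV, read 513 and 107 (-2.37). Ndufaf2, the complex I factor that Ndufa12 replaces, read 2261 and 799 (-1.62). These values put factors for both complex I and complex IV among the genes past 2-fold lower.

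The other lower factors were Cox15, Uqcc2, Foxred1 and Ndufaf3. Cox15, an enzyme of heme A synthesis, read 351 and 168 (-1.18), while its second probe read 118 and 190 (0.57). Uqcc2 (-1.10) serves complex III and Foxred1 (-1.05) complex I. Ndufaf3, a complex I factor, read 40.2 on the nondiabetic array, did not stand well above background on the diabetic array and was at least 4.34-fold lower, a bound against the lowest intensity well above background on that array (10.1). Higher were Coa6 (23.5 and 81.3, 1.67), which works with Sco2 on copper delivery, and Ndufaf7 (161 and 485, 1.48), a methyltransferase that acts on complex I. Also higher were Surf1 (106 and 307, 1.42), whose human counterpart is mutated in Leigh syndrome, and Sdhaf1 (99.6 and 263, 1.28), which matures Sdhb. Cox18 was at least 3.01-fold higher. Sco1 was at least 4.04-fold higher on 1 probe and at least 2.44-fold lower on the other, so it has no settled direction. Probes also disagreed for other factors, among them Ttc19 (-0.33, with -0.91 and 2.66 on dimmer probes) and Cox16 (-0.08, with -1.08 on its other probe). Ndufaf5 was at -0.46, and its dimmer probe was at least 2.06-fold higher. With normexp background correction, an alternative added after the data were seen, 2 assembly factors were at least 2-fold higher and 3 lower. With the mean over probes, added likewise, 5 were higher and 6 lower, and the median was 0.22.

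Among 15 regulators of mitochondrial genes, 11 were above 0 and 4 below, beside 7773 above and 7419 below among all named genes. Of the regulators 3 (20.0%) passed 2-fold, near the 21.1% of all named genes. Their median was 0.40, beside 0.02 over all named genes. With normexp the median was 0.22. Esrra, a nuclear receptor that drives many respiratory genes, read 72.3 and 339 (2.11). Tfb1m, which methylates mitochondrial ribosomal RNA, read 13.7 and 47.5 (1.68), close to the lowest intensity well above background. Ppargc1a, the coactivator PGC-1α, read 47.6 on the nondiabetic array and did not stand well above background on the diabetic array. It was at least 5.14-fold lower on that probe, while its other probe (2.27 and 10.9) was given no ratio. Its relatives Ppargc1b (16.7 and 32.8, 0.85) and Pprc1 (91.3 and 132, 0.42) were above 0.

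The factors whose motifs were searched in the promoters lay within 2-fold on their brightest probes, while dimmer probes differed from these. Nrf1 read 586 and 718 (0.18), its next probe gave -0.18, and the dimmest (10.1 and 27.5) was at least 2.48-fold higher. Gabpa read 242 and 307 (0.22, with -0.40 on a dimmer probe), its partner Gabpb1 read 583 and 863 (0.45, with 1.57 on a dimmer probe), and Yy1 read 258 and 245 (-0.19). Factors of mitochondrial transcription were also within 2-fold, with Tfam at 214 and 268 (0.21), Tfb2m at 996 and 1422 (0.40) and Polrmt at 318 and 454 (0.40). The remaining regulators were Hif1a (109 and 167, 0.50), Ppara (158 and 140, -0.29) and Myc (1412 and 1106, -0.47). With normexp, 1 regulator was at least 2-fold higher and 0 were lower, and with probes measured on both arrays alone 0 were lower.

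**Figure D4:**
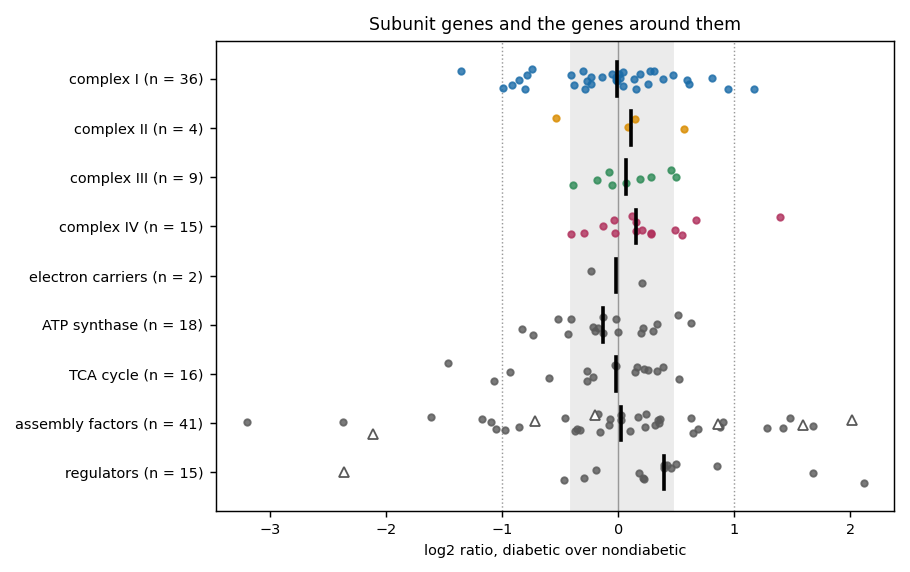
Log2 ratio of diabetic over nondiabetic for the genes of each complex and of the lists around the chain, with a point per gene, triangles for bounds, a bar at the median of each list (1 complex I gene is counted in the median and not drawn), dotted lines at 2-fold and a grey band for the middle 50% of all named genes (-0.41 to 0.47). The subunits and ATP synthase cluster around 0, and the assembly factors reach from -3.20 to a bound of 2.01.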

How the data were processed

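LSK cells were sorted, and their RNA was extracted, amplified and hybridized by the study (1 Cy3 array per condition). The authors deposited spot intensities from Agilent Feature Extraction 11.5.1.1, background-corrected within each array and not scaled between arrays, and a table of processed intensities that equals them times 1 constant per array (log2 factors 3.48 and 3.35). The normalization of that table is not given in the sources used here. Intensities were taken to log2 and scaled to the 75th percentile of the non-control spots of each array. Of 59305 such spots, 314 were left out as outliers on either array, and spots of a probe were averaged. Probes were named through transcript identifiers in a GRCm38.p6 table (53.7% of spots), while the array grid refers to mm9, from which no coordinates were taken. Probes well above background on a single array were given a bound, unless the bound came to less than 1-fold.

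No test was made. The values of 1 complex I gene are counted in the totals and not reported here. Named were members past 2-fold, the extremes and brightest of each complex, core and tissue isoforms, members with discordant probes, and list genes past 2-fold or extreme. Others, such as Ndufv3 and Ndufa12, were named after their values were seen. Members and lists were chosen with earlier results of these data known. The steps were tested on simulated data. Python 3.11.15, pandas 2.3.3, R 4.3.3 and limma 3.58.1 were used. Alternatives were normexp on the median spot intensity (offset 50), quantile, loess and median scaling, other filters on dim probes, a floor, the mean over probes, outlier spots kept, the authors' table and Ndufa4 in complex IV.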

Additional observations from a re-analysis of the deposited data

How the results depend on the processing

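The same 3 members were at least 2-fold higher and Ndufs4 at least 2-fold lower under the main setting and all 10 alternatives. Under quantile normalization, loess and the authors' table Ndufv3 joined Ndufs4, which made 2 members lower, both in complex I. With the mean over a gene's probes the median of complex II was -0.14 (0.11 with the brightest probe) and that of complex III was 0.18 (0.07). Of 25 named members, 9 moved by more than the spot-to-spot SD under normexp and 4 with the mean over probes. The mean over probes turned the sign of 4 members, among them Sdhb (-0.14) and Sdhc (-0.15), and moved Ndufb11 to 0.78 and Ndufb5 to -0.73. Normexp narrowed the background to 3.96% of all genes at least 2-fold higher and 3.29% lower, and brought Cox6b1 to 1.16 and Ndufa10 to 1.06. No paired analysis was possible because there is a single array for each condition, and for the same reason no replicate could be left out. The number of arrays limits the precision of every value. The results on the lists around the chain were recomputed under alternatives added after the data were seen.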

Other observations

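The TCA cycle supplies the NADH and succinate that complexes I and II oxidize. Of 16 of its genes, pyruvate dehydrogenase included, 0 were at least 2-fold higher and 2 were at least 2-fold lower (12.5% together). Their median log2 ratio was -0.02. Past 2-fold lay 21.1% of all named genes, 22.9% of the middle group by signal and 6.86% of the brightest group. These counts use the brightest probe of a gene. For Ogdh it gave 0.25, and dimmer probes gave 0.47 and 1.08 (350 and 805), the last past 2-fold. For Dld it gave 0.16, and a dimmer probe gave -0.50. Suclg2, the GTP-forming subunit of succinyl-CoA ligase, read 131 in nondiabetic and 51.2 in diabetic mice (-1.47). Idh3a, the catalytic subunit of NAD-dependent isocitrate dehydrogenase, read 550 and 284 (-1.07). Their partners differed from them in value, with Suclg1 at 356 and 202 (-0.93), Sucla2 at 237 and 299 (0.22), Idh3b at 608 and 862 (0.39) and Idh3g at 958 and 862 (-0.27). On the brightest probes the highest value was that of Dlat, of pyruvate dehydrogenase, at 56.3 and 87.7 (0.52). With normexp 0 of these genes were at least 2-fold lower.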
